A study of Homo sapiens with 17 samples.

Results

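Cadherins, claudins and the proteins of the desmosome hold neighbouring epithelial cells together, and their genes were followed here on 17 microarrays of human breast lines. The 58 genes described are every measured gene, out of 17687 with 1 gene symbol, whose symbol is CDH, CLDN, DSG, DSC or PKP followed by a number, together with DSP and JUP. They comprise 21 cadherins, 24 claudins, 7 desmosomal cadherins, 4 plakophilins, and desmoplakin (DSP) and plakoglobin (JUP), each read by 1 probe set. The rule uses symbols alone and no measured value, but the genes were chosen with earlier results of these data known.

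Classical cadherins reach across the gap between cells and, inside the cell, bind beta-catenin and alpha-catenin, which connect them to actin in the adherens junction. In desmosomes, desmogleins (DSG) and desmocollins (DSC) take the place of the classical cadherins, and plakoglobin, the plakophilins (PKP) and desmoplakin tie them to keratin or vimentin filaments. Claudins are membrane proteins that form the strands of tight junctions and set which ions pass between cells. A switch from E-cadherin (CDH1) to N-cadherin (CDH2) or cadherin-11 (CDH11) is a textbook mark of mesenchymal tumour cells, and repressors such as SNAI1, SNAI2, ZEB1 and ZEB2 are known to silence CDH1.

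MDA-MB-231 is a triple-negative breast cancer line of mesenchymal type. Its cells were seeded for 24 h and then given Maraviroc, a chemokine receptor antagonist, or DZH_2, a compound known here only by that code name, for 48 h. There were 2 arrays each for Maraviroc IC20, Maraviroc IC50 and their solvent ethanol, 2 arrays each for DZH_2 IC20, DZH_2 IC50 and their solvent DMSO, and 1 array of untreated cells. IC20 and IC50 name concentrations that inhibit by 20% and 50%, but no source used here gives the amounts in solution. Another 4 arrays are titled MCF10, a non-tumorigenic mammary epithelial line, with 1 array for each DZH_2 dose, 1 for DMSO and 1 of untreated cells. The cell line field of these 4 arrays says MDA-MB-231, while their titles and descriptions say MCF10, and the titles were followed. No label says whether replicate arrays came from separate cultures, so p-values rest on the spread of these arrays alone and that spread may be technical.

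The labels were checked against marker genes in the untreated and DMSO arrays. The arrays titled MCF10 had 4 of 5 measured basal epithelial markers above the negative control probes, namely KRT5, ITGB4, TRIM29 and S100A2, and MDA-MB-231 had 2 of 5. Simple and luminal epithelial markers were above the controls for 3 of 8 genes in the arrays titled MCF10, namely KRT8, KRT18 and GATA3, and for 5 of 8 in MDA-MB-231. In the arrays titled MCF10, CDH1, EPCAM and KRT14 gave signals near the negative controls, while the fibroblast genes DCN, FBLN1 and MMP2 averaged 10.5, 13.6 and 13.8 there on the log2 scale, against 5.43, 4.86 and 4.72 in MDA-MB-231. These arrays are called by their title below. Fibroblast markers were above the negative controls for 6 of 8 genes in the arrays titled MCF10 and 2 of 8 in MDA-MB-231. Of the same list, THY1 (7.23 against 9.38) and PDGFRA (4.76 against 5.16, near the controls in both) read lower in the arrays titled MCF10. Markers of mesenchymal breast cancer lines were above the controls for 6 of 7 genes in both. The gene near the controls was AKAP12 in the arrays titled MCF10 (5.33 against 11.4) and SPARC in MDA-MB-231 (5.54 against 11.7). None of 4 endothelial markers passed in either line, and 3 of 3 measured leukocyte markers passed in the arrays titled MCF10, against 2 of 3 in MDA-MB-231. The part of these marker differences in the junction genes was not tested.

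The values are log2 signals as deposited, so a difference of 1 is a fold of 2. A gene whose mean in a group falls under the 75th percentile of 612 negative control probe sets is called near the negative controls, and that percentile stood at 6.05 to 6.60 on the arrays titled MCF10 and 5.64 to 6.46 on the MDA-MB-231 arrays. The Maraviroc IC50 replicates differed more (SD 0.546 over all genes) than those of the other groups (0.277 to 0.366), and the median of their negative controls was 0.436 above that of the ethanol arrays. Signals of different probe sets are not on a common scale, so levels are compared within a gene only. The arrays measure bulk RNA, in which fewer cells of a type and less RNA per cell cannot be told apart.

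Most of these genes gave little signal. In MDA-MB-231, 14 of the 58 (24.1%) lay above the negative controls in all 7 groups, against 52.8% of all genes, 6 lay above in some groups and 38 in none. The 14 were the cadherins CDH11, CDH15, CDH18 and CDH24, the claudins CLDN4, CLDN5, CLDN7, CLDN12 and CLDN15, desmoglein 2 (DSG2), PKP2, PKP4, DSP and JUP. The arrays titled MCF10 also had 14 genes above the controls in all 4 groups, against 46.9% of all genes, 15 in some and 29 in none. Both lines shared 11 of these, and 26 of the 58 were near the negative controls in every group of either line. These 26 include CDH1, the endothelial cadherin CDH5, CLDN1, CLDN3, CLDN11, PKP3, DSC1, DSG3 and DSG4.

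**Figure D1:**
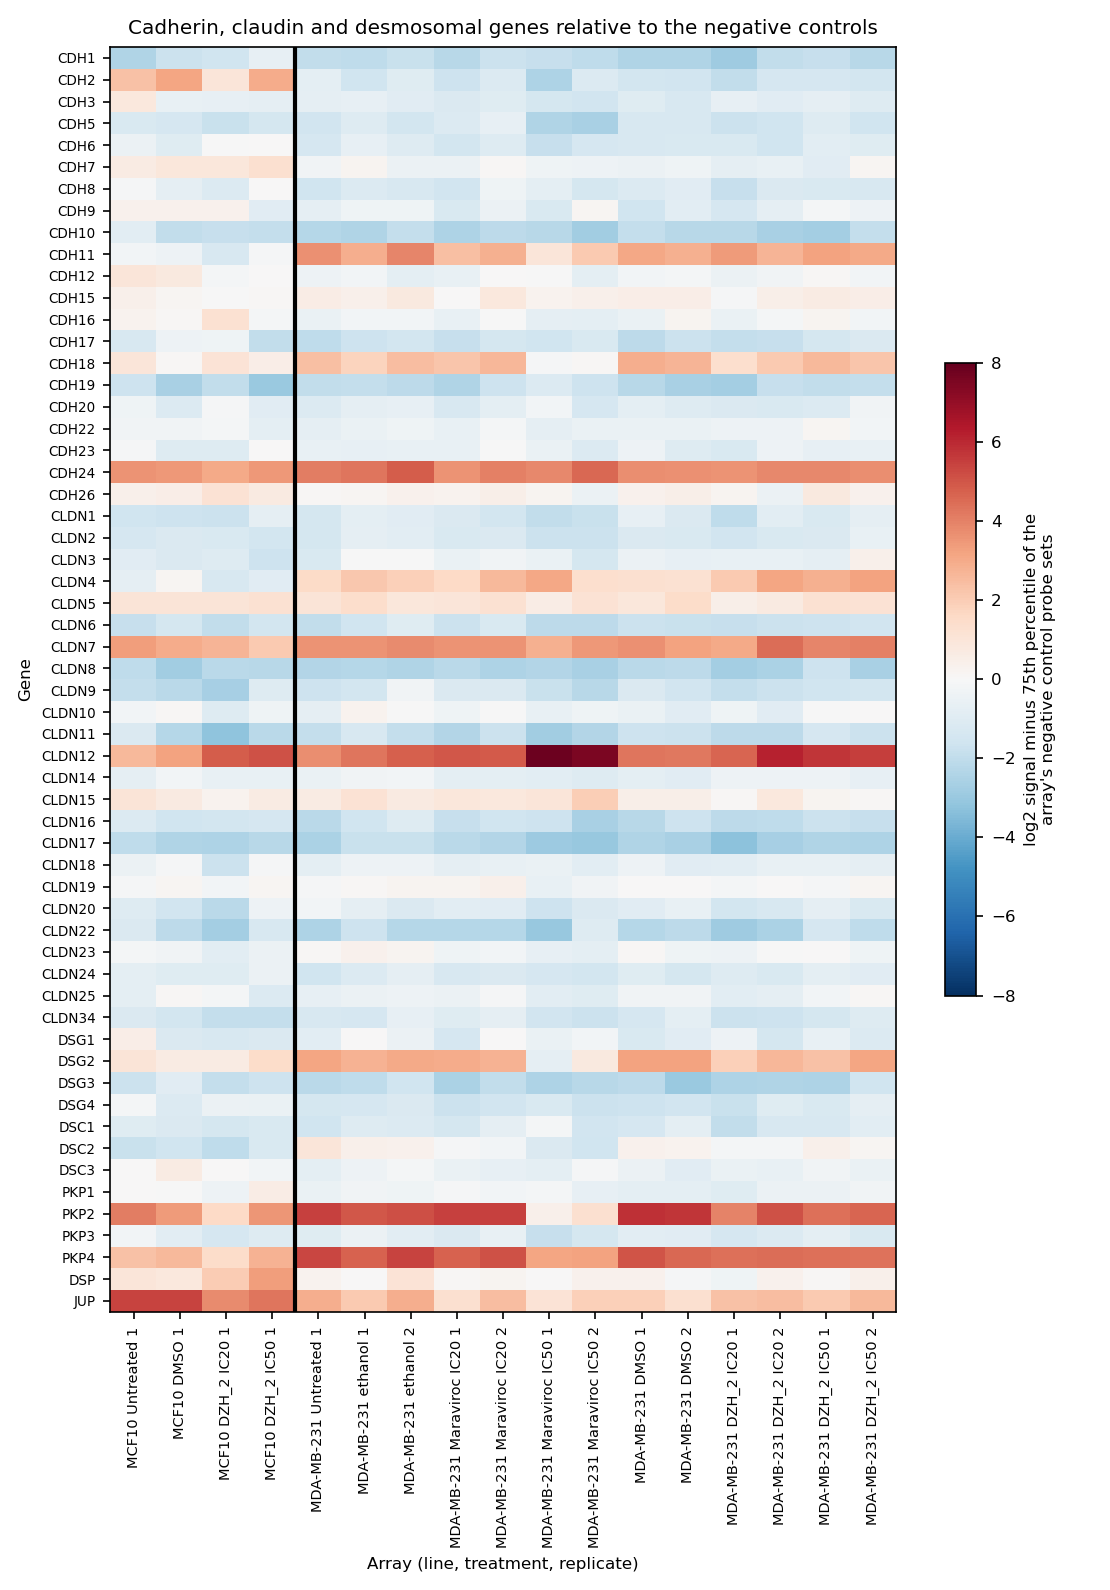
Each cell is the log2 signal of 1 of the 58 genes (rows) on 1 of the 17 arrays (columns) minus the 75th percentile of that array's negative controls, with the 4 arrays titled MCF10 left of the black line and the 13 MDA-MB-231 arrays right of it. The row of CLDN12 is darkest on the Maraviroc IC50 arrays, and the row of PKP2 is palest there. Blue marks signals under the 75th percentile, and 38 of the 58 genes had means under it in every MDA-MB-231 group.

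The epithelial cadherin CDH1 stayed near the negative controls throughout. It read 4.60 and 4.46 on the Maraviroc IC50 arrays against 3.84 and 3.83 on the ethanol arrays, a difference of 0.69 ± 0.28 (SE) that did not pass the test (adjusted p = 0.0891, limma). N-cadherin was near the negative controls in all 7 MDA-MB-231 groups, with values of 3.96 to 5.36. P-cadherin (CDH3), a cadherin of basal epithelium, read 4.75 to 5.60 over the MDA-MB-231 arrays and was near the negative controls there too. CDH11, a cadherin of mesenchymal cells, gave signal on all 13 MDA-MB-231 arrays, with 7.37 to 9.69.

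Of the 4 comparisons with solvent in MDA-MB-231, Maraviroc IC50 alone gave calls among the 58 genes. Against ethanol, limma called 10 of the 58 genes (17.2%) at an adjusted p under 0.05, where it called 27% of all 17687 genes. The 4 that rose were CLDN12, CDH19, CLDN15 and CDH17, beside 12% of all genes that rose, and the 6 that fell were PKP2, DSG2, CDH18, CDH11, PKP4 and DSC2, beside 15% of all genes that fell. Dim genes were seldom called, where dim is judged on means that include those of the groups compared. Limma called 2 of the 38 genes that lay above the negative controls in no MDA-MB-231 group (5.26%), beside 6.46% of all such genes. It called 8 of the 20 others (40%), beside 37.3% of all genes above the controls in at least 1 group. The median difference over the 58 was 0.21 and that over all genes 0.11.

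The desmosomal genes moved downwards where they were called, with 2 of 7 desmosomal cadherins and 2 of 4 plakophilins lower and none higher. Over all genes, 15% were called lower and 12% higher. PKP2, which ties desmoplakin to the desmosomal cadherins, read 6.82 and 7.71 on the Maraviroc IC50 arrays, against 10.85 and 10.81 on the ethanol arrays. The groups lay far apart, with the other 9 MDA-MB-231 arrays between 10.25 and 11.82. Its difference was -3.56 ± 0.34 (SE, n = 2 arrays per group), an 11.8-fold lower signal (adjusted p = 1.5e-05, limma).

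DSG2, the desmoglein found in most epithelia, fell to 5.70 and 7.24 on the Maraviroc IC50 arrays, against 8.67 and 8.65 on the ethanol arrays. The Maraviroc arrays differed from each other by more than the ethanol arrays did, and 1 of them lay below the 75th percentile of its negative controls, but both were below every other MDA-MB-231 array. The difference was -2.19 ± 0.43 (adjusted p = 0.0024, limma), 4.55-fold lower. Without the lower Maraviroc array it was -1.42 and still passed.

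DSC2, the desmocollin that is expressed beside DSG2 in simple epithelia, read 5.25 and 4.89 on the Maraviroc IC50 arrays, against 6.29 and 6.02 on the ethanol arrays. It was near the negative controls in the Maraviroc group and above them in the ethanol group. It fell by 1.09 ± 0.27 on the log2 scale (adjusted p = 0.0102, limma), and the call was lost without the ethanol array at 6.29 (-0.95, adjusted p = 0.0824).

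PKP4, an armadillo protein of both adherens junctions and desmosomes, read 9.57 and 9.65 on the Maraviroc IC50 arrays, against 10.58 and 11.02 on the ethanol arrays. The Maraviroc replicates were close, the ethanol replicates less so, and the groups did not overlap. The difference was -1.19 ± 0.25 (adjusted p = 0.0034, limma), and the adjusted p was 0.0565 where these 4 arrays alone were fitted.

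DSP and JUP were not called. DSP, which binds the filaments, read 6.45 and 6.78 on the Maraviroc IC50 arrays, against 5.89 and 6.75 on the ethanol arrays, and the groups overlapped (difference 0.30 ± 0.31, adjusted p = 0.531, limma). JUP, the catenin that desmosomes and adherens junctions share, read 7.53 and 8.34 on the Maraviroc IC50 arrays, against 7.95 and 8.53 on the ethanol arrays, and overlapped as well (-0.30 ± 0.37, adjusted p = 0.598, limma). Its 95% interval ran over -1.10 to 0.50. PKP1, PKP3, DSG1, DSG3, DSG4, DSC1 and DSC3, most of them genes of stratified epithelium, were near the negative controls in all MDA-MB-231 groups.

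The 7 desmosomal cadherin genes lie side by side. On chromosome 18 CDH2, DSC3, DSC2, DSC1, DSG1, DSG4, DSG3 and DSG2 follow each other with no other protein-coding RefSeq gene between them, and of these 8 only DSG2 and DSC2 lay above the negative controls in any MDA-MB-231 group. The promoters of DSG2 and DSP are shown because the CACCTG box, which SNAI2 and ZEB1 are known to bind, occurs 2 times in each, and that of CLDN12 because CLDN12 had the largest difference of the 58 between Maraviroc IC50 and ethanol. They cover 250 bases upstream of the RefSeq start in GRCh38.p14, all on the plus strand, with CACCTG or its reverse complement CAGGTG in capitals.
DSG2, chr18:31497927-31498176: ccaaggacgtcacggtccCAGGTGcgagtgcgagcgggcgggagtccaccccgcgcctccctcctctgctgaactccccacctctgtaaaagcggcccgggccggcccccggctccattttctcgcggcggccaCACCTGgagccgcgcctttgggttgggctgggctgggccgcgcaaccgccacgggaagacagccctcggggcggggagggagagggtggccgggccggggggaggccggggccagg
DSP, chr6:7541421-7541670: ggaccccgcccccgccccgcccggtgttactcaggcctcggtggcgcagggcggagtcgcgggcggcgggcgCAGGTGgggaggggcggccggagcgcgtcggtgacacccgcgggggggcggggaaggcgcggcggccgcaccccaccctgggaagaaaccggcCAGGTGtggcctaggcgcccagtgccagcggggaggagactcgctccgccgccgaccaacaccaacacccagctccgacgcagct
CLDN12, chr7:90403211-90403460: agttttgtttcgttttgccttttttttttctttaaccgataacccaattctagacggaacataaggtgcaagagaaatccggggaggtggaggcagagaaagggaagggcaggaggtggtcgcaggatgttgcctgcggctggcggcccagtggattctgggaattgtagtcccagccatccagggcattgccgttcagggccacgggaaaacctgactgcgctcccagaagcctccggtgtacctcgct
The matches start at -232 and -116 in DSG2 and at -178 and -85 in DSP, counted from the start site, and CLDN12 has none in this window. Over both strands, 6143 of 35116 human promoters in the RefSeq table (17.5%) hold the box, as do 6 of the 40 genes of this group that the table lists (15%), the other 4 being DSC2, DSG1, CLDN18 and CLDN25.

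Of the cadherins, 2 of 21 fell and 2 rose, beside 15% of all genes lower and 12% higher. CDH18, a cadherin described mainly in the nervous system, read 6.36 and 6.53 on the Maraviroc IC50 arrays, against 7.67 and 8.14 on the ethanol arrays. Both Maraviroc arrays lay below all other MDA-MB-231 arrays, whose lowest value was 7.63, and averaged 6.44, the level of their negative controls' 75th percentile. The difference was -1.46 ± 0.28 (adjusted p = 0.0019, limma).

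CDH11 read 7.37 and 8.54 on the Maraviroc IC50 arrays, against 8.80 and 9.58 on the ethanol arrays. The groups did not overlap, but the replicates of each differed by more than the nearest arrays of the groups did. Its difference of -1.23 ± 0.41 passed narrowly (adjusted p = 0.0415, limma) and no longer passed without the Maraviroc array at 7.37 (-0.65, adjusted p = 0.269) or the ethanol array at 9.58 (-0.84, adjusted p = 0.285).

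CDH19, a cadherin of the glial lineage, and CDH17, a cadherin of the intestine, were called higher but lay near the negative controls in both groups. CDH19 read 5.30 and 4.83 on the Maraviroc IC50 arrays, against 3.96 and 3.56 on the ethanol arrays (1.31 ± 0.30, adjusted p = 0.0058, limma), and its call was lost without the ethanol array at 3.56 (1.11, adjusted p = 0.0592). CDH17 read 4.85 and 5.24 on the Maraviroc IC50 arrays, against 4.19 and 4.16 on the ethanol arrays (0.87 ± 0.27, adjusted p = 0.0314, limma), and 0.43 (adjusted p = 0.268) where each array was centred on its negative controls. The call of CDH17 was also lost without either ethanol array or the Maraviroc array at 5.24, with adjusted p of 0.112 to 0.132. The 38 genes that were above the controls in no MDA-MB-231 group had a median difference of 0.28, beside 0.23 for all 5897 such genes and 0.44 for the negative controls themselves on the same arrays. With each array centred on its negative controls, CDH19 kept its call at 0.87.

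Among the 24 claudins, 2 rose and none fell, beside 12% of all genes higher and 15% lower. CLDN12 is a claudin whose tail lacks the end motif with which most claudins bind scaffold proteins. It read 14.28 and 13.99 on the Maraviroc IC50 arrays, against 10.17 and 10.40 on the ethanol arrays. The Maraviroc arrays were above all other MDA-MB-231 arrays, which ran over 9.65 to 12.16. The difference of 3.85 ± 0.35 (adjusted p = 1.1e-05, limma) was the largest of the 58 genes, a 14.5-fold higher signal.

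CLDN15, a claudin that forms ion channels in the intestine, read 7.37 and 8.41 on the Maraviroc IC50 arrays, against 7.01 and 6.38 on the ethanol arrays. The lower Maraviroc array was close to the higher ethanol array. The difference of 1.19 ± 0.36 passed (adjusted p = 0.0248, limma) but was 0.67 without the Maraviroc array at 8.41 (adjusted p = 0.177), 0.88 without the ethanol array at 6.38 (adjusted p = 0.196) and 0.76 with each array centred on its negative controls (adjusted p = 0.147).

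The claudins usually used to mark epithelium were not called. CLDN7 read 9.26 and 9.93 on the Maraviroc IC50 arrays, against 9.44 and 9.42 on the ethanol arrays, and overlapped. CLDN4 read 9.54 and 7.81 on the Maraviroc IC50 arrays, against 8.02 and 7.57 on the ethanol arrays, and overlapped too (0.88 ± 0.48, adjusted p = 0.205, limma). CLDN5, the claudin of endothelium, overlapped as well, with a difference of 0.41 ± 0.34 (adjusted p = 0.424, limma).

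**Figure D2:**
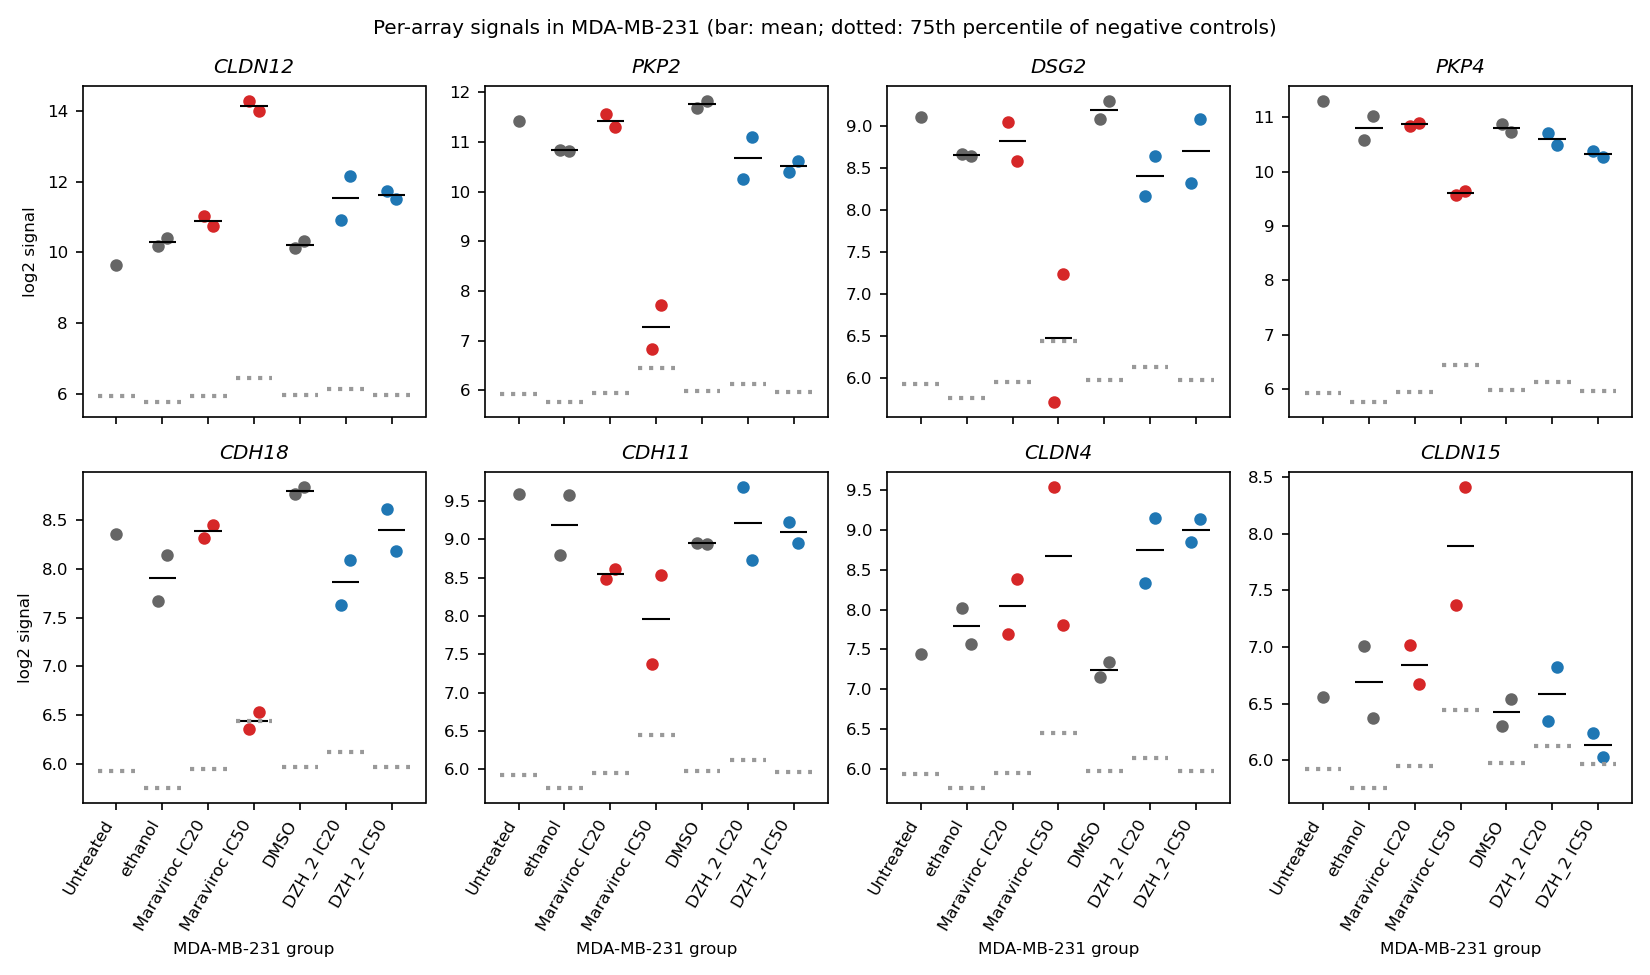
Points are log2 signals of 8 genes on each MDA-MB-231 array by group (Maraviroc red, DZH_2 blue, solvents and untreated grey), bars are means of 2 arrays, and dotted lines are the group's 75th percentile of the negative controls. For CLDN12 the Maraviroc IC50 points stand above, and for PKP2, DSG2, CDH18 and PKP4 below, all other groups.

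The partners of these junction proteins were taken from 4 lists. Among 16 measured catenins and adherens junction partners, 5 fell and 1 rose at Maraviroc IC50 (37.5% called), beside 27% of all genes called, 15% lower and 12% higher. Alpha-catenin (CTNNA1), which ties the cadherin complex to actin, fell by 3.69 ± 0.24 on the log2 scale to 9.43 in Maraviroc IC50 cells, against 13.1 in ethanol cells (adjusted p = 1.8e-06, limma). NECTIN3, a nectin of the adherens junction, VCL (vinculin) and CTNNAL1, an alpha-catenin relative, had log2 differences of -2.43, -2.43 and -2.04. LIMA1, an actin-binding protein (-2.55), and CTNNB1, beta-catenin (1.31), complete this list's calls, and both were lost without ethanol replicate 1 (-1.97 and 0.99, adjusted p = 0.0788 and 0.0738, limma). CTNNA1 was lower on both Maraviroc IC50 arrays than on every other MDA-MB-231 array.

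Of 20 measured tight junction scaffolds and partners, 2 rose and 2 fell (20% called), beside the same 27% of all genes. Occludin (OCLN), a membrane protein of the tight junction, differed by -2.35 ± 0.44 and the polarity protein PARD3 by -1.53 ± 0.26 (adjusted p = 0.0016 and 0.000922, limma). TJAP1 was higher by 1.74 ± 0.32, and MARVELD3, a relative of occludin, by 0.89 ± 0.26. MARVELD3 lost its call in 6 of 14 alternatives, with 0.46 (adjusted p = 0.219) where arrays were centred on their negative controls and adjusted p of 0.0637 to 0.107 without Maraviroc IC50 replicate 1 or either ethanol array, while TJAP1 kept its call in all 14. None of 7 measured desmosome and cornified linkers was called, with 1 at an unadjusted p under 0.05.

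Of 20 measured regulators of the epithelial state, 4 fell and 3 rose (35% called), again beside 27% of all genes. SNAI2 (-2.08 ± 0.30) and ZEB1 (-2.68 ± 0.39), both repressors of CDH1, were lower, as were KLF5 (-1.66) and PRRX1 (-1.45), the last with an adjusted p of 0.0649 without ethanol replicate 2. SNAI1, another repressor of CDH1, read 9.99 and 7.002 on the Maraviroc IC50 arrays, against 6.33 and 6.41 on the ethanol arrays. Its difference of 2.13 ± 0.69 (adjusted p = 0.0357, limma) rested on the array at 9.99, without which it was 0.63 (adjusted p = 0.284), and the call was also lost without either ethanol array. OVOL2 and ESRP1, which favour the epithelial state, were called higher by 0.74 and 0.81 at levels near the negative controls. With arrays centred on those controls they were 0.31 and 0.38 (adjusted p = 0.378 and 0.323, limma), and they lost their calls in 7 and 8 of 13 alternatives, among them leaving out Maraviroc IC50 replicate 1 or either ethanol array.

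At Maraviroc IC20, no gene of the 58 and none of all 17687 (0%) passed against ethanol, and 309 genes but none of the 58 had an unadjusted p under 0.05. The smallest p-values were those of CDH24 (-0.57 ± 0.28), CDH5 (0.56 ± 0.30) and PKP2 (0.59 ± 0.34), each with an adjusted p of 1.00 in limma. PKP2 read 11.56 and 11.29 on the Maraviroc IC20 arrays, against 10.85 and 10.81 on the ethanol arrays. CLDN12 read 11.04 and 10.74 on the Maraviroc IC20 arrays, against 10.17 and 10.40 on the ethanol arrays, with a difference of 0.61 and a 95% interval of -0.15 to 1.37.

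Set directly against each other, the Maraviroc doses differed in 9 of the 58 genes (15.5%), beside 26.7% of all genes, with 4 higher and 5 lower at IC50, beside 11.9% and 14.8%. The comparison shares its IC50 arrays with the one against ethanol. PKP2 was 17.8-fold lower at IC50, a log2 difference of -4.16 ± 0.34, and CLDN12 was higher by 3.25 ± 0.35 (adjusted p = 5.3e-06 and 3.7e-05, limma). DSG2 (-2.35), CDH18 (-1.94) and PKP4 (-1.26) were also lower. CDH5 (-1.14), CDH19 (1.12), CDH24 (0.87) and CLDN15 (1.04) were called as well, CDH5 and CDH19 near the negative controls at both doses. CDH24, a cadherin bound to catenins, read 10.26 and 11.03 on the Maraviroc IC50 arrays, against 9.69 and 9.86 on the Maraviroc IC20 arrays. Without Maraviroc IC20 replicate 1 only PKP2, CLDN12, CDH18, DSG2 and PKP4 passed. CDH5, CDH24 and CLDN15 also lost their calls without Maraviroc IC20 replicate 2, CDH24 (0.49) and CLDN15 (0.52) without Maraviroc IC50 replicate 2, and CDH19 (0.89) without Maraviroc IC50 replicate 1.

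DZH_2 gave no call among these genes at either dose. At IC50 none of the 58 passed against DMSO, where 1.57% of all genes did (0.582% higher and 0.984% lower). An unadjusted p under 0.05 in limma was found for 5 of the 58 and for 2675 of all 17687 genes. At IC20 none passed either, beside 0.871% of all genes (0.435% in each direction). There 6 of the 58 and 2118 of all genes had an unadjusted p under 0.05. The smallest p-values were those of CLDN12, PKP2 and CLDN4 at IC50 and of CLDN12, CDH18 and PKP2 at IC20. None of these genes was called at either dose. That depended on the fit: at IC50, CLDN12 and CLDN4 each passed in 4 of 15 alternatives, PKP2 in 3 and CDH18 in 0.

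CLDN12 read 10.92 and 12.16 on the DZH_2 IC20 arrays and 11.72 and 11.51 on the DZH_2 IC50 arrays, against 10.13 and 10.31 on the DMSO arrays. All 4 DZH_2 arrays lay above both DMSO arrays and above the untreated array at 9.65. The difference was 1.32 ± 0.35 at IC20 (adjusted p = 0.106) and 1.40 ± 0.35 at IC50 (adjusted p = 0.0694, limma).

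CLDN4, a claudin of many simple epithelia, read 8.34 and 9.15 on the DZH_2 IC20 arrays and 8.85 and 9.14 on the DZH_2 IC50 arrays, against 7.16 and 7.34 on the DMSO arrays. The DZH_2 and DMSO arrays were separate by about 1 on the log2 scale, and the untreated array at 7.45 lay with DMSO. The ethanol arrays read 8.02 and 7.57, and the higher of them was close to the lowest DZH_2 array. The difference was 1.50 ± 0.48 at IC20 (adjusted p = 0.187) and 1.75 ± 0.48 at IC50 (adjusted p = 0.0905, limma).

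PKP2 read 10.25 and 11.09 on the DZH_2 IC20 arrays and 10.40 and 10.61 on the DZH_2 IC50 arrays, against 11.69 and 11.82 on the DMSO arrays. All DZH_2 arrays were lower than DMSO, but the ethanol arrays at 10.85 and 10.81 lay in the range of DZH_2. The difference was -1.08 ± 0.34 at IC20 (adjusted p = 0.177) and -1.25 ± 0.34 at IC50 (adjusted p = 0.0885, limma).

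CDH18 read 7.63 and 8.09 on the DZH_2 IC20 arrays and 8.62 and 8.18 on the DZH_2 IC50 arrays, against 8.76 and 8.84 on the DMSO arrays. The difference was -0.94 ± 0.28 at IC20 (adjusted p = 0.150, limma), and at IC50 it was -0.40 ± 0.28, a value that turned to 0.05 against the mean of all 5 control arrays. JUP read 8.59 and 8.49 on the DZH_2 IC20 arrays and 8.07 and 8.53 on the DZH_2 IC50 arrays, against 7.75 and 7.37 on the DMSO arrays, while the untreated array read 8.81.

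Over both doses, 6 of the 58 genes had all 4 DZH_2 arrays above both DMSO arrays, beside 14.5% of all genes, and 4 had all 4 below, beside 14.1%. CLDN12, CLDN4, JUP, CLDN14, CDH3 and CDH22 were the 6, and PKP2, PKP4, CDH18 and CLDN9 the 4. Both shares, 10.3% and 6.9%, were below the background. In the lists of partners, CTNNAL1 (-1.77 ± 0.39, adjusted p = 0.0457, limma) and SNAI2 (-1.54 ± 0.30, adjusted p = 0.0286) were lower at DZH_2 IC50, and none of the 16, 20, 7 and 20 measured genes was called at IC20, where 4, 1, 0 and 3 had an unadjusted p under 0.05. Both calls were lost without any 1 of the DZH_2 IC50 and DMSO arrays, with adjusted p of 0.130 to 0.402 for CTNNAL1 and 0.132 to 0.206 for SNAI2, and CTNNAL1 lost its call in 8 of 15 alternatives in all.

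The doses of DZH_2 did not differ in any gene (0% called), with 1 of the 58 and 721 of all genes at an unadjusted p under 0.05 in limma. CLDN25 (0.56 ± 0.24), CDH18 (0.54 ± 0.28) and CLDN22 (0.87 ± 0.53) had the smallest p-values, each with an adjusted p of 1.00. For CLDN12 the interval of the difference between doses was -0.68 to 0.83, and for CLDN4 -0.78 to 1.29.

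**Figure D3:**
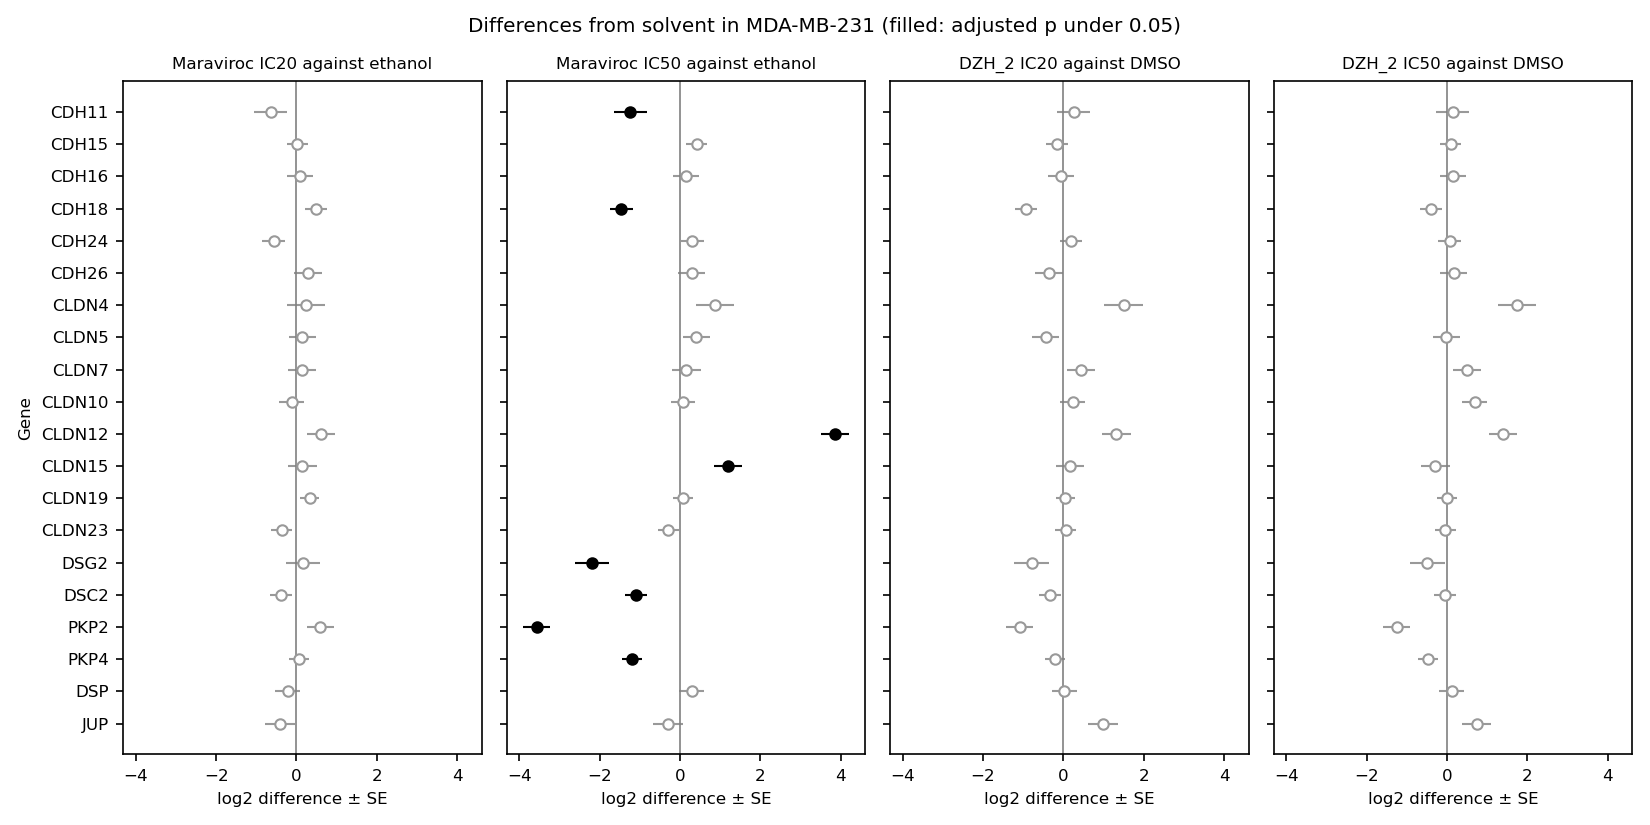
Points are log2 differences from solvent with their SE from limma, for the 20 genes above the negative controls in at least 1 MDA-MB-231 group, with Maraviroc IC20 and IC50 against ethanol and DZH_2 IC20 and IC50 against DMSO. Filled points have an adjusted p under 0.05 and occur for Maraviroc IC50 alone among these comparisons, with CLDN12 at 3.85 and PKP2 at -3.56.

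The compounds were compared at matched inhibition, each relative to its own solvent, as 1 difference minus the other. At IC50, 2 of the 58 genes differed, beside 6.17% of all genes, of which 2.15% were higher and 4.02% lower. CLDN12 was higher by 2.46 ± 0.50 with Maraviroc than with DZH_2 (adjusted p = 0.0118), and PKP2 was lower, at -2.31 ± 0.48 (adjusted p = 0.0135, limma). Both calls were lost without DZH_2 IC50 replicate 2, DMSO replicate 2 or ethanol replicate 1, and that of PKP2 also without DMSO replicate 1, with adjusted p between 0.0528 and 0.0625. The values without these arrays were 2.34 to 2.37 for CLDN12 and -2.38 to -2.21 for PKP2.

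For the other genes that Maraviroc IC50 moved, the difference between the compounds did not pass. It was 1.48 with an interval of 0.39 to 2.57 for CLDN15, -1.70 with -3.02 to -0.38 for DSG2, and -1.06 with -1.91 to -0.21 for CDH18. These intervals leave out 0 but belong to p-values that miss the threshold over all genes (adjusted p = 0.108, 0.129 and 0.142, limma). Among the partners, CTNNA1 (-3.73), NECTIN3 (-2.46), VCL (-1.88) and OCLN (-2.45) differed between the compounds. CTNNA1 and NECTIN3 kept their calls in all 17 alternatives. VCL lost its call in 8 of 17, among them leaving out any 1 array of the comparison other than Maraviroc IC50 replicate 1, and OCLN in 6 of 17, among them leaving out DZH_2 IC50 replicate 2 or any 1 DMSO or ethanol array, with adjusted p up to 0.128 and 0.144.

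At IC20 no gene differed between the compounds (0%), with 4 of the 58 and 1273 of all genes at an unadjusted p under 0.05. CDH18 (1.42 ± 0.39), PKP2 (1.68 ± 0.48) and JUP (-1.39 ± 0.52) had the smallest p-values, with adjusted p = 0.475, 0.485 and 0.592 in limma. The solvents enter these values. Ethanol against DMSO gave no call (0%), with 3 of the 58 and 1352 of all genes at an unadjusted p under 0.05. The same CDH18 (-0.90 ± 0.28) and PKP2 (-0.93 ± 0.34) had the smallest p-values there, with CDH24 (0.68 ± 0.28), so for CDH18 and PKP2 part of the difference between the compounds at IC20 lay in the solvent arrays.

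The lines differed in single junction genes. The untreated and the DMSO array titled MCF10 were set against the 3 untreated and DMSO arrays of MDA-MB-231, and no test was made. Of 23 background probe sets, 10 held 1 shared value on at least 10 of the 13 MDA-MB-231 arrays and none of the arrays titled MCF10 held it, and no source used here says whether the lines were normalized together. Levels across the lines carry that limit. By the rule of at least 1 on the log2 scale between the nearest arrays, 4 of the 58 genes (6.9%) were higher in the arrays titled MCF10, beside 6.4% of all genes, and 6 (10.3%) were lower, beside 18%. The first share was near the background and the second below it.

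CDH2, the N-cadherin of neural and mesenchymal cells, read 8.40 untreated and 9.36 in DMSO in the arrays titled MCF10, against 5.13 untreated and 4.36 and 4.54 in DMSO in MDA-MB-231. JUP read 11.46 untreated and 11.61 in DMSO in the arrays titled MCF10, against 8.81 untreated and 7.75 and 7.37 in DMSO in MDA-MB-231. These were the 2 largest excesses, with mean differences of 4.09 and 3.35. CDH9 (1.50) and CDH12 (1.34), cadherins described mainly in the nervous system, were the other 2, and CDH17 (1.31), CDH7 (1.29), DSC3 (1.27) and DSG3 (1.22) followed with arrays closer than 1 apart.

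CDH11 read 5.85 untreated and 5.84 in DMSO in the arrays titled MCF10, which is near their negative controls, against 9.58 untreated and 8.95 and 8.94 in DMSO in MDA-MB-231. It was thus the cadherin furthest below, at -3.42, while CDH2 was the one furthest above. PKP4 (-2.46), DSG2 (-2.19), DSC2 (-2.15), CDH18 (-1.91) and PKP2 (-1.73) were also lower in the arrays titled MCF10. DSG2 read 7.06 untreated and 6.87 in DMSO there, against 9.11 untreated and 9.09 and 9.30 in DMSO in MDA-MB-231. CLDN4 (-1.50) and CLDN12 (-0.92) were lower by means whose nearest arrays were under 1 apart.

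CDH1 did not separate the lines. It read 3.62 untreated and 4.52 in DMSO in the arrays titled MCF10, against 3.99 untreated and 3.44 and 3.71 in DMSO in MDA-MB-231, near the negative controls on all 5 arrays. CDH3 read 6.87 untreated and 5.62 in DMSO in the arrays titled MCF10, against 4.81 to 5.21 in MDA-MB-231, and its group mean was above the controls in the untreated array alone.

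**Figure D4:**
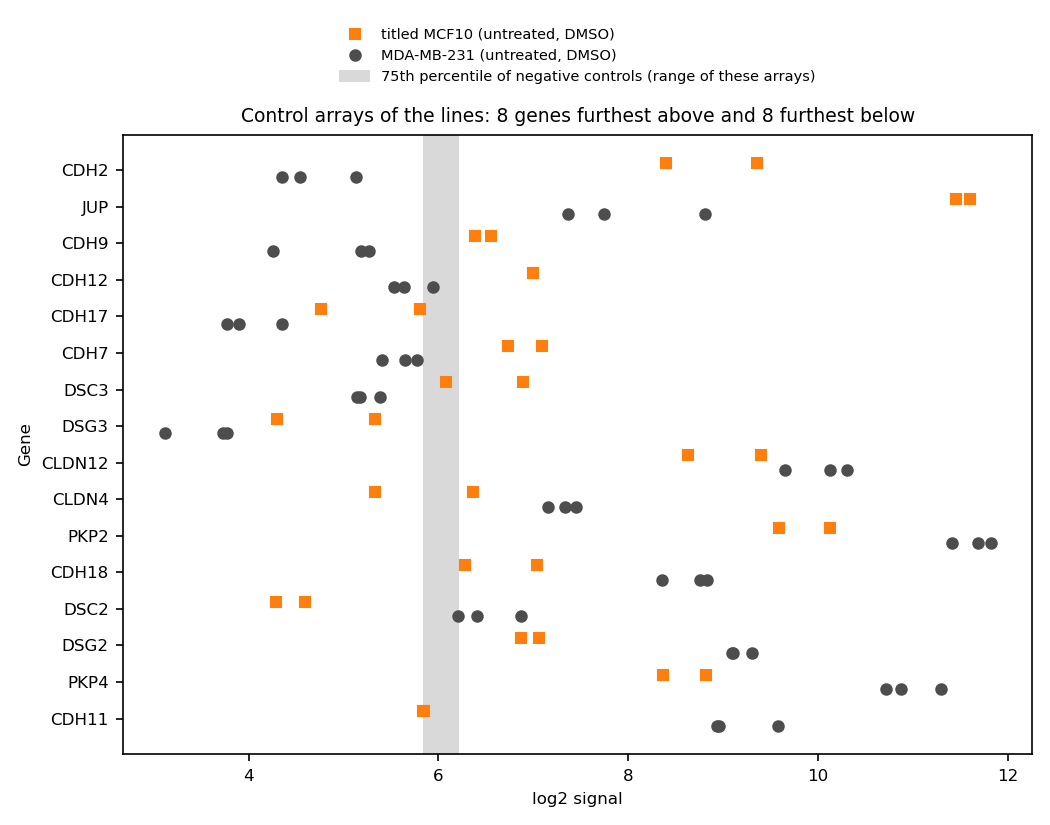
Log2 signals on the untreated and DMSO arrays of the 8 genes furthest above and the 8 furthest below in the arrays titled MCF10 (orange squares, 2 arrays) relative to MDA-MB-231 (grey circles, 3 arrays), with the grey band spanning the 75th percentiles of the negative controls. CDH2 and JUP lie to the right, and CDH11, PKP4 and DSG2 to the left, of their MDA-MB-231 values.

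DZH_2 was also given to the cells titled MCF10, with 1 array per dose, so the values below have no replicate check. Of the 58 genes, 2 were higher than DMSO by at least 1 at both doses, beside 4.52% of all genes, and 2 were lower, beside 4.88%. CLDN12 read 11.46 at IC20 and 11.27 at IC50, against 9.40 in DMSO and 8.63 untreated, with differences of 2.06 and 1.87 from DMSO. DSP read 8.61 at IC20 and 9.55 at IC50, against 7.07 in DMSO and 6.997 untreated, with differences of 1.54 and 2.48. Both treated arrays lay above both control arrays for these genes.

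JUP read 10.39 at IC20 and 10.49 at IC50, against 11.61 in DMSO and 11.46 untreated, and was lower than both control arrays. CLDN4 read 5.35 at IC20 and 5.29 at IC50, against 6.36 in DMSO, but the untreated array read 5.34, so the DMSO array stood apart from the other 3. All but the DMSO value of CLDN4 were near the negative controls. CDH6 (1.32 at IC20 and 0.96 at IC50) and CLDN8 (0.99 and 0.52) came next above DMSO, and DSG3 (-0.62 and -0.77) and CDH12 (-0.56 and -0.77) next below it. PKP2, lower on all 4 DZH_2 arrays of MDA-MB-231, read 8.20 at IC20 and 9.73 at IC50, against 9.59 in DMSO and 10.13 untreated.

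CLDN12 was therefore higher on all 6 DZH_2 arrays than on every DMSO and untreated array of the same line. DSP was not: in MDA-MB-231 it read 5.93 and 6.33 on the DZH_2 IC20 arrays and 6.07 and 6.37 on the DZH_2 IC50 arrays, against 6.22 and 5.99 on the DMSO arrays, and the groups overlapped. JUP and CLDN4 lay on opposite sides of DMSO in the lines, lower in the arrays titled MCF10 and higher in MDA-MB-231, as 2 of 4 such genes, beside 9.28% of all genes.

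**Figure D5:**
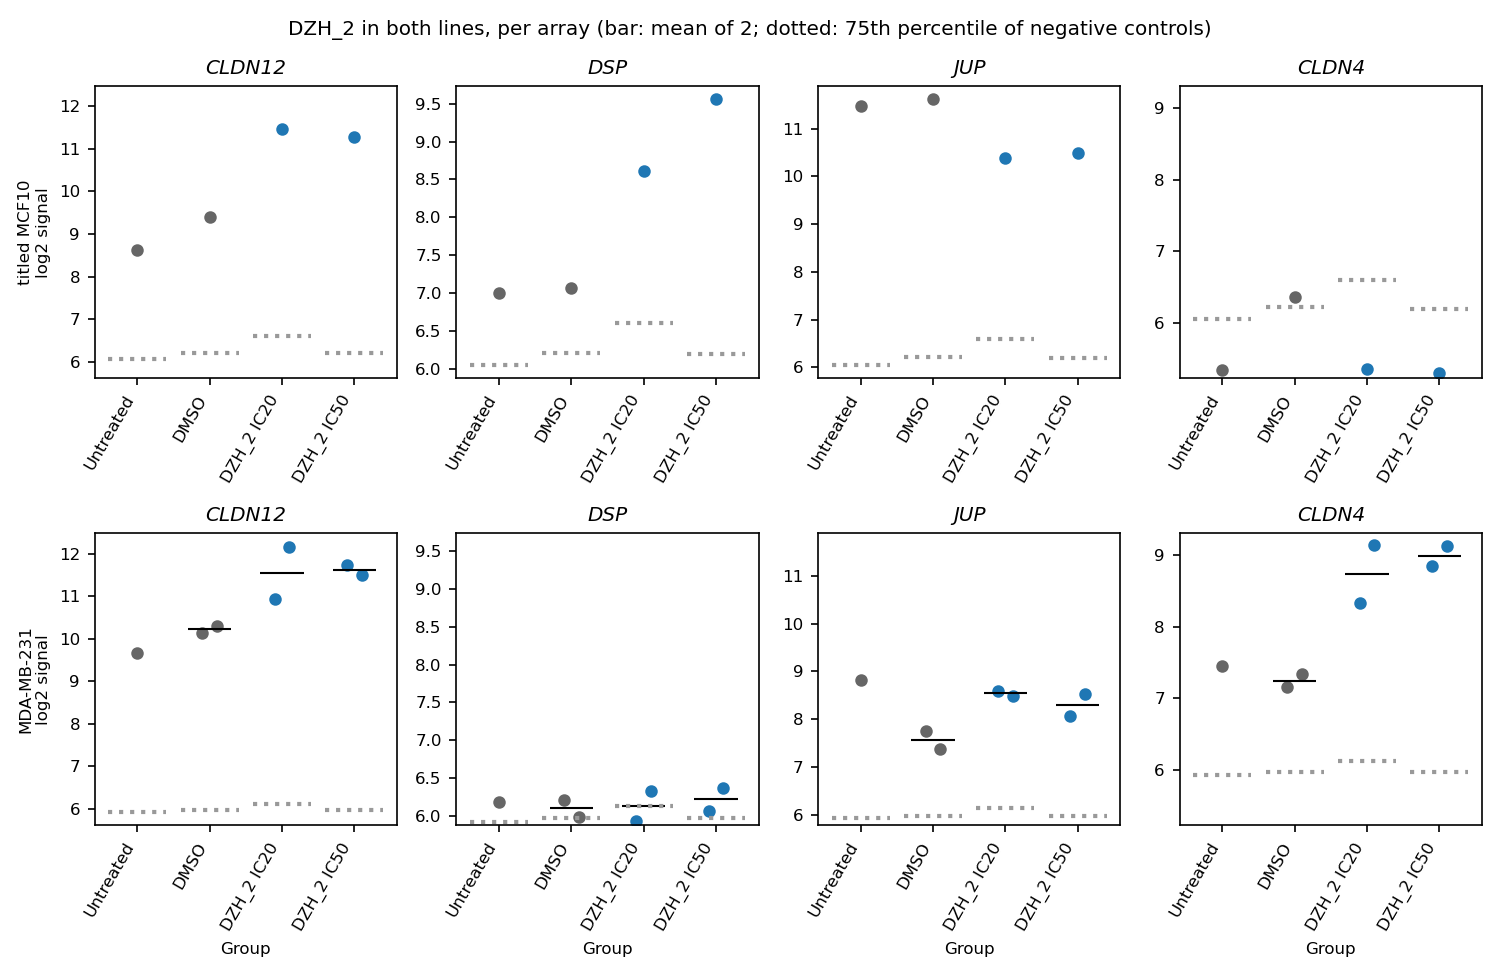
Log2 signals of CLDN12, DSP, JUP and CLDN4 by group, with the 4 arrays titled MCF10 in the upper row (1 array per group) and MDA-MB-231 in the lower row (bars are means of 2 arrays), and dotted lines at the 75th percentile of the negative controls. CLDN12 stands above DMSO in both rows, DSP stands higher with DZH_2 in the upper row alone, and JUP and CLDN4 lie on opposite sides of DMSO in the rows.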

How the data were processed

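RNA of MDA-MB-231 and of cells titled MCF10 was measured on 17 Affymetrix arrays from biotinylated cRNA, per the labels' protocols. The deposited table holds 1 log2 signal for each of 24351 probe sets on every array. No source used here gives how the authors summarised, background-corrected and normalized them, or the genome build. They were used as deposited, with no filter. Gene names came from the platform annotation, with symbols updated by Entrez identifier through RefSeq. It gave 17709 probe sets with 1 symbol, and 17687 genes remained where the probe set with the highest mean was taken for a gene with several. CDH4 and CDH13 were not analysed here.

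All 12 MDA-MB-231 arrays from groups with replicates entered 1 fit on group means with limma 3.58.1 in R 4.3.3 (lmFit, contrasts.fit, eBayes), with 6 residual degrees of freedom. P-values are 2-sided, adjusted after Benjamini-Hochberg over 17687 genes. The SE (±) comes from 1 pooled spread per gene and can differ from that of the groups compared. The fit was tested on simulated data with independent noise, equal spread in all groups and large planted differences. That test does not bear on calls near the threshold or on unequal spread. Groups of a single array have values only, and precision is limited by the number of arrays. Alternatives covered normalization, centring, dim genes, the spread prior, array weights, the arrays fitted, the replicate block, the control and each replicate left out.

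The genes and lists were chosen with earlier results of these data known. Genes named were those past the threshold (or the 3 with the smallest p), a list of the best known members, the 8 furthest each way between the lines, the 4 furthest each way for DZH_2 in the arrays titled MCF10, and up to 4 called genes of each partner list. LIMA1, CTNNB1, SNAI1, OVOL2, ESRP1, and the genes with all DZH_2 arrays on 1 side of DMSO, were named after their values were seen.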

Additional observations from a re-analysis of the deposited data

Results flagged for a closer look

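For 4 of the 58 genes the DZH_2 arrays lay on opposite sides of DMSO in the lines, with no overlap in either, as they did for 9.28% of all genes. The difference between the lines was not tested, and the arrays titled MCF10 have 1 array per group. The values are the mean DZH_2 difference from DMSO in the arrays titled MCF10 minus that in MDA-MB-231. For CLDN4 it was -2.66, from -1.04 in the arrays titled MCF10 and 1.62 in MDA-MB-231. For JUP it was -2.03, from -1.17 in the arrays titled MCF10 and 0.86 in MDA-MB-231. For CDH18 it was 1.58, from 0.91 in the arrays titled MCF10 and -0.67 in MDA-MB-231. CDH18 read 7.67 at IC20 and 6.72 at IC50 in the arrays titled MCF10, against 6.29 in DMSO and 7.04 untreated, so the IC50 array lay between the controls. Of these 4 genes, JUP alone had both DZH_2 arrays titled MCF10 beyond the untreated array as well as beyond DMSO. In MDA-MB-231, however, the untreated array of JUP at 8.81 lay above all 4 DZH_2 arrays (8.07 to 8.59). For CLDN14, near the negative controls in every group, it was -0.64, from -0.21 in the arrays titled MCF10 and 0.44 in MDA-MB-231.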

How the results depend on the processing

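CLDN12, PKP2, CDH18 and DSG2 kept their calls for Maraviroc IC50 against ethanol under all 14 alternatives, with ranges of 3.42 to 4.02, -4.05 to -3.12, -1.91 to -1.22 and -2.95 to -1.42. The 10 calls of that comparison became 4 with only the groups compared in the fit, 16 against all 5 control arrays, and 6 to 13 with 1 replicate left out. The 9 calls between the Maraviroc doses became 5 to 12 with 1 replicate left out. For DZH_2 IC50 the 0 calls became 3 with array weights, 3 without the Maraviroc IC50 arrays, 3 with only the groups compared and 2 against all 5 control arrays. For DZH_2 IC20 they became 2 with array weights, 1 without the Maraviroc IC50 arrays, 1 against all 5 control arrays and 0 to 1 with 1 replicate left out. The 2 calls between the compounds at IC50 became 5 with arrays centred on their negative controls, an alternative chosen after seeing the data that shifts every gene by 0.436 downwards for Maraviroc IC50 against ethanol, and 0 to 4 with 1 replicate left out. CDH18 for DZH_2 IC50 reversed to 0.048 against all 5 control arrays. The cause of these shifts was not tested, except that leaving out arrays also leaves fewer samples. Same-numbered replicates deviated together at correlations of -0.08 to 0.30 over 7 pairs of groups, 3 of them over 0.1, and no label says that a number marks a shared batch, so whether the numbers pair the arrays is not settled. With the replicate block, 10 genes were called for Maraviroc IC50 against ethanol and 8 between the Maraviroc doses, where CLDN15 lost its call, and 2 between the compounds at IC50. Counts over all genes, for the same alternatives, moved over 1.5 times too: from 4778 to 2399 for Maraviroc IC50 against ethanol with only the groups compared, and from 277 to 942 for DZH_2 IC50 with array weights. In the arrays titled MCF10, the 4 genes 1 or more from DMSO stayed 4, and the 10 apart from MDA-MB-231 were 9 to 12, under 3 other scalings chosen after seeing the data. Signal over the negative controls limits 26 of the 58 genes in every group of either line.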

Other observations

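Alpha-catenin (CTNNA1), the link from cadherins to actin that was lower with Maraviroc IC50 in MDA-MB-231, also read low on 1 array titled MCF10. It read 9.32 at DZH_2 IC20 and 11.54 at DZH_2 IC50, against 11.67 in DMSO and 11.25 untreated. On the same IC20 array PKP2 read 8.20, against 9.73 at IC50, 9.59 in DMSO and 10.13 untreated, and CDH2 read 7.54, against 9.15 at IC50, 9.36 in DMSO and 8.40 untreated. Other genes read high on it, with CDH16 at 7.81, against 6.05 at IC50, 6.29 in DMSO and 6.36 untreated, and CDH20 at 6.52, against 5.29 at IC50, 5.14 in DMSO and 5.73 untreated. That array had the highest median (5.30) and 75th percentile (6.60) of the negative controls and the narrowest interquartile range over all genes (3.34) of the 17 arrays, and the part of this in the values was not tested. It is the only one of its group, so these values have no replicate check, and CDH16 and CDH20 were named after their values were seen.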
